A study of Mus musculus with 4 samples.

Results

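The regions described here are the islands of 2 to 20 kb with the highest density of signal for H3K36me3, the trimethylation of histone H3 at lysine 36. An island is a stretch of the genome that the authors' caller, SICER, marked as enriched in a chromatin immunoprecipitation library. Islands on chromosomes 1 to 19 without 4, 6, 14 and 15 were taken at lengths from 2 kb to just under 20 kb, which left 39530 of 58326 wild-type islands and 40649 of 69798 mutant islands. The members were selected on the deposited island score divided by the number of 200 bp windows in the island, and the 500 highest of each list were taken, or 1.26% of the wild-type and 1.23% of the mutant islands that could have been chosen. Because the score chose them, their high scores are no finding, and what follows describes their agreement between the libraries, their place along the chromosomes and the islands around them.

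Both lists come from muscle cells of FVB mice, with 1 H3K36me3 library from wild-type cells and 1 from enhancer deletion mutant cells, in which a muscle enhancer shared by H19 and Igf2 is missing (the mutant). The cells were taken from skeletal muscle on postnatal day 4, grown for 5 to 10 passages and made to differentiate by removal of growth factors for 24 hours. The labels do not say how many animals gave either culture, and input DNA of both genotypes was not analysed here. Each genotype being a single library, neither a test nor a p-value is given, and genotype, culture and library cannot be told apart. Each library was made from 10 ng of DNA.

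H3K36me3 is written by SETD2, a methyltransferase that travels with elongating RNA polymerase II, so the mark builds up along the bodies of transcribed genes and grows toward their 3′ ends. Within gene bodies it is read by proteins that keep histones deacetylated and by DNA methyltransferases, and it is known to bear on the choice of exons. A broad mark of this kind is usually described by the length it covers. Density along a covered stretch is a different property, and it is the one that defines these regions. The positions are on mouse build mm9, for which no gene annotation was used here, so the genes beneath the islands are not named, the cell type was not checked against marker genes, and no sequence is printed.

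SICER scores a window by how improbable its read count is under a Poisson background, on a natural log scale, so scores rise with depth. Solved from the scores of islands 1 window long, wild-type depth was 2.82 and mutant depth 3.11 reads per window. The 500th island scored 9.40 per window in wild-type and 10.2 in mutant cells. If all windows of an island were alike, these scores would stand for 11.3 and 12.5 reads per window. Set against the mean depth of its own library, that is 4.02 times in wild-type and 4.03 times in mutant cells. The median island of 2 to 20 kb had scores of 3.39 and 3.69 per window, which stand for 2.22 and 2.25 times the mean depth. The 2 sets thus began at nearly the same fold over their own library's mean. Agreement was otherwise judged by rank or percentile within a list. Where scores of both libraries are given side by side, they are not corrected for depth, and their differences are not read as results.

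The members were not spread evenly above the limit. Their median score per window was 10.9 in wild-type and 11.9 in mutant cells, and 25% of them scored at least 12.7 and 13.9. Only 19 wild-type and 30 mutant members scored over 20. The limit itself fell where islands are crowded. In the wild type the last 3 members scored 9.408, 9.406 and 9.402 and the next 3 islands 9.398, 9.394 and 9.391, and in the mutant the last 3 scored 10.208, 10.207 and 10.207 and the next 3 10.205, 10.201 and 10.201. Within 10% of the limit lay 184 wild-type members and 314 islands just below, and 184 mutant members and 342 islands just below.

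**Figure D1:**
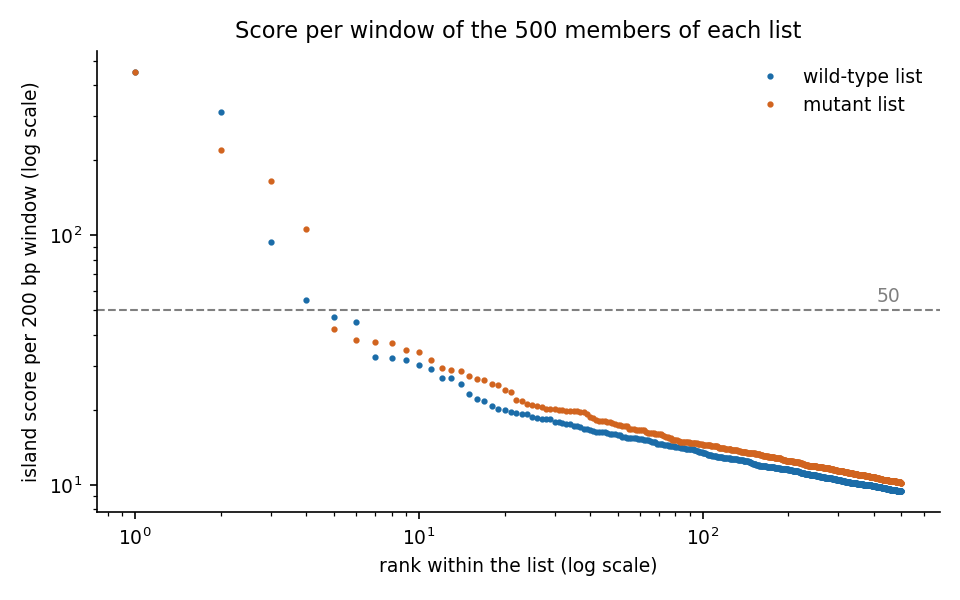
Island score per 200 bp window of the 500 members of each list (y axis, log scale) against rank within the list (x axis, log scale). The 4 members of each list above the dashed line at 50 stand clear of the rest in the mutant, where the next score is 42.3, and less clear in the wild type, where 55.3 is followed by 46.9.

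Members with a score per window over 50 were set apart, because repeated sequence can collect reads in any library of genomic DNA. There were 4 in each list, at the same 4 places. Whether input DNA also shows an excess of reads there was not tested, so their scores are not read as levels of H3K36me3. The first lay on chromosome 2 from 98502201 to 98507600, with identical edges in both libraries and scores per window of 453 in wild-type and 451 in mutant cells. The next lay on chromosome 17 from 39979801 to 39985800, again with identical edges, and scored 312 in wild-type and 220 in mutant cells. On chromosome 12 an island from 70752201 to 70755400 in the wild type scored 94.0, and one from 70752601 with the same end scored 106 in the mutant. The last, on chromosome 17, spanned 13737401 to 13746800 in the wild type with a score of 55.3, whereas the mutant island took in 13743401 to 13746200 alone and scored 166. There the wild-type island was 9.4 kb long and the mutant island 2.8 kb, and 29.8% of the first was covered in the mutant. Its score per window is thus not set over the same bases in the 2 lists.

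These 4 islands made up 0.673% of the wild-type members' length and 10.7% of their summed score, and 0.553% and 9.88% in the mutant. Across all chromosomes and lengths, 24 wild-type and 23 mutant islands scored over 50 per window. Most of these, 18 and 16, were shorter than 2 kb, and 2 in each list were 20 kb or longer. Most islands over 50 per window were therefore left out by the length limits. The share of all islands that are shorter than 2 kb was not counted, so whether short islands reach such scores more often was not tested.

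Below 50 the highest members were also found at the same places. Rank 5 in both lists was held by an island on chromosome 18 from 3004201 to 3006400, with the same edges in both libraries and scores per window of 46.9 in wild-type and 42.3 in mutant cells. It was followed in the wild type by islands on chromosome 13 (74665801 to 74668200, 44.8), chromosome 17 (3073001 to 3083000, 32.5), chromosome 18 (4195201 to 4200000, 32.2) and chromosome 3 (146138801 to 146141800, 31.7). Each of these 4 overlapped a mutant member as well. The mutant scores of the 4 counterparts were 37.4, 38.1, 28.8 and 24.0. The remaining wild-type islands of this group lay on chromosome 5 (15181601 to 15188600, 30.1, and 15002201 to 15011200, 26.8), chromosome 12 (4219201 to 4229000, 29.1), chromosome 11 (12273201 to 12278600, 26.8) and chromosome 3 (115595401 to 115611400, 25.5). Of the 10 wild-type islands ranked 5 to 14, the chromosome 12 island was the exception with no mutant member beneath it. It lay within a mutant island from 4212401 to 4232400 that scored 18.5 per window, and at 20 kb was too long for the length limit.

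In the mutant, the islands ranked 5 to 14 all overlapped a wild-type member. Of these, 4 came from 1 stretch of chromosome 5: 15050801 to 15055600 (36.9 per window), 15183601 to 15189400 (34.6), 15003401 to 15011600 (31.5) and 15191801 to 15203000 (29.3). Their wild-type counterparts scored 19.2, 30.1, 26.8 and 23.0. The lowest rank across the libraries in this group was that of chromosome 13 from 13842401 to 13850800, which scored 28.7 in the mutant and whose wild-type counterpart scored 10.6, still at percentile 99.3 of the wild-type islands.

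Fewer than 50 in 100 members of either set overlapped a member of the other, although nearly all lay over some island there. By an overlap of at least 1 bp, 215 of 500 wild-type members (43.0%, 95% interval 38.6% to 47.5%) overlapped a mutant member, against 1.19% of all wild-type islands of 2 to 20 kb. In the other direction 217 of 500 mutant members (43.4%, 39.0% to 47.9%) overlapped a wild-type member, against 1.21% of all mutant islands of that length. The intervals are exact binomial (Clopper-Pearson) and cover counting error only. Counted as places, the 1000 members formed 782 separate loci, of which 214 held members of both lists, 285 wild-type members alone and 283 mutant members alone. The bases covered by both sets came to 1.46 Mb of 5.17 Mb covered by either, a Jaccard index of 28.3%.

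Some mutant island of any length or score lay under 499 of 500 wild-type members (99.8%), where 83.8% of all wild-type islands of 2 to 20 kb had one. A wild-type island lay under 494 of 500 mutant members (98.8%), against 80.8% of all mutant islands of that length. The members were also more fully covered. In the wild type 52.4% of members, against 23.4% of all islands of 2 to 20 kb, were covered over their whole length in the mutant library, and the mutant values were 54% and 32.7%. Members were longer than the other islands, with medians of 5600 against 4200 bp in wild-type and 4600 against 3600 bp in mutant cells, and the part of length in these shares was not tested.

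Agreement fell with rank within the sets. Of the 100 densest wild-type members 83 (83.0%, 74.2% to 89.8%) overlapped a mutant member, and of the last 100, 16 (16.0%, 9.43% to 24.7%) did. In the mutant the counts were 73 of the first 100 (73.0%, 63.2% to 81.4%) and 19 of the last 100 (19%, 11.8% to 28.1%). The rank groups were formed on the score that also set the limits, and scores were correlated between the libraries. Members just above the limit of their own list would thus miss the other limit more often. The fall with rank is therefore not read as a separate result. The intervals cover counting error only, treat members as independent and are not used as a test. Within the wild type the fall was steepest after the first 100, from 42 of 50 members ranked 51 to 100 to 28 of 50 ranked 101 to 150. In both lists the last 100 members still overlapped a member of the other list more often than all islands of 2 to 20 kb.

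**Figure D2:**
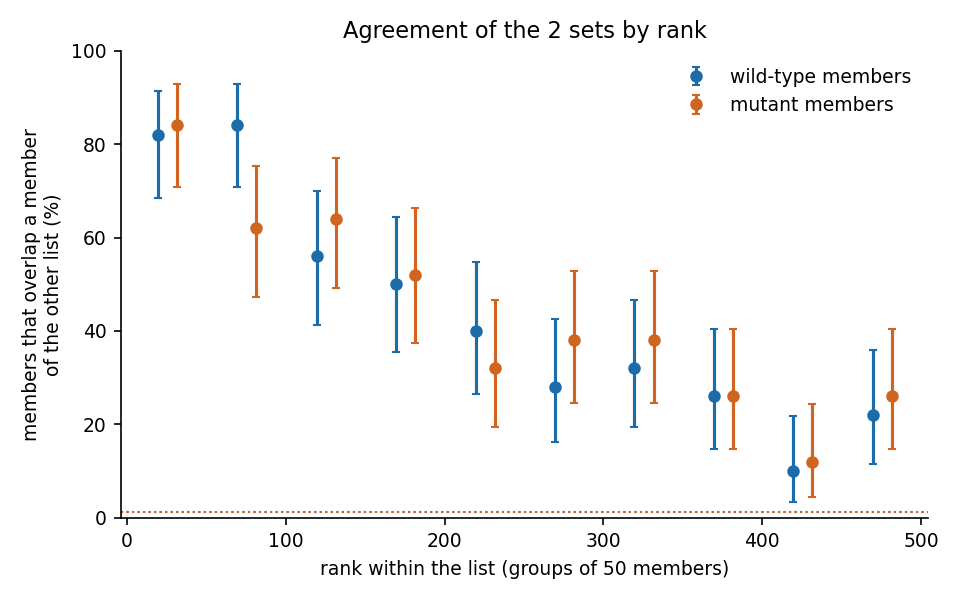
Percentage of members that overlap a member of the other list (y axis) in groups of 50 by rank (x axis), with exact binomial 95% intervals as bars. Agreement was 82.0% and 84.0% in the first group of the wild-type and mutant lists and 22.0% and 26.0% in the last, and the dotted lines, which nearly coincide, show 1.19% and 1.21% for all islands of 2 to 20 kb.

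Agreement also differed with length, mainly in the mutant. Mutant members of 2000 to 2800 bp overlapped a wild-type member in 26 of 113 cases (23.0%, 15.6% to 31.9%), and those of 12000 to 19800 bp in 36 of 58 (62.1%, 48.4% to 74.5%). The wild-type shares were 30 of 94 (31.9%, 22.7% to 42.3%) and 42 of 85 (49.4%, 38.4% to 60.5%). A longer island can meet an overlap of 1 bp more easily. The share over all islands of the same length was not counted, so the part of length itself was not tested. Long islands were more often members in the first place. They were 3.69% of wild-type islands of 12000 to 19800 bp and 1.03% of those of 2000 to 2800 bp, and 2.76% and 0.826% in the mutant. Where 1 wild-type member met 1 mutant member, at 210 of the 214 common loci, the wild-type island was the longer at 84, the mutant island at 90, and both were of equal length at 36. At 31 of these 210 loci both edges were the same to the window.

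Members without a member beneath them mostly lay over islands that ranked high in the other list but below its limit. Each member was given the percentile, among the other library's islands of 2 to 20 kb, of the densest island it overlapped there. The median was 98.5 for wild-type and 98.5 for mutant members, against 54.2 and 51.2 for all islands of 2 to 20 kb of the 2 lists. An island in the top 5% of the other library lay under 379 of 500 wild-type members (75.8%), against 6.44% of all wild-type islands of 2 to 20 kb, and under 360 of 500 mutant members (72.0%), against 6.19% of all mutant islands of that length. Of the 285 wild-type members with no mutant member beneath them, 164 still lay over an island in the top 5% and 216 over one in the top 10%. Of the 283 such mutant members the counts were 143 and 215. The share of all islands in the top 10% was not counted, and the upper quartile of their percentiles was 79.2 for the wild-type and 78.4 for the mutant list. Across all wild-type islands of 2 to 20 kb with a counterpart (n = 33126) the scores per window had a Spearman correlation of 0.53 with those of the densest mutant counterpart, and 0.57 the other way (n = 32839). These islands are not independent of each other, the 2 libraries were mapped to the same genome, and the values are a description.

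**Figure D3:**
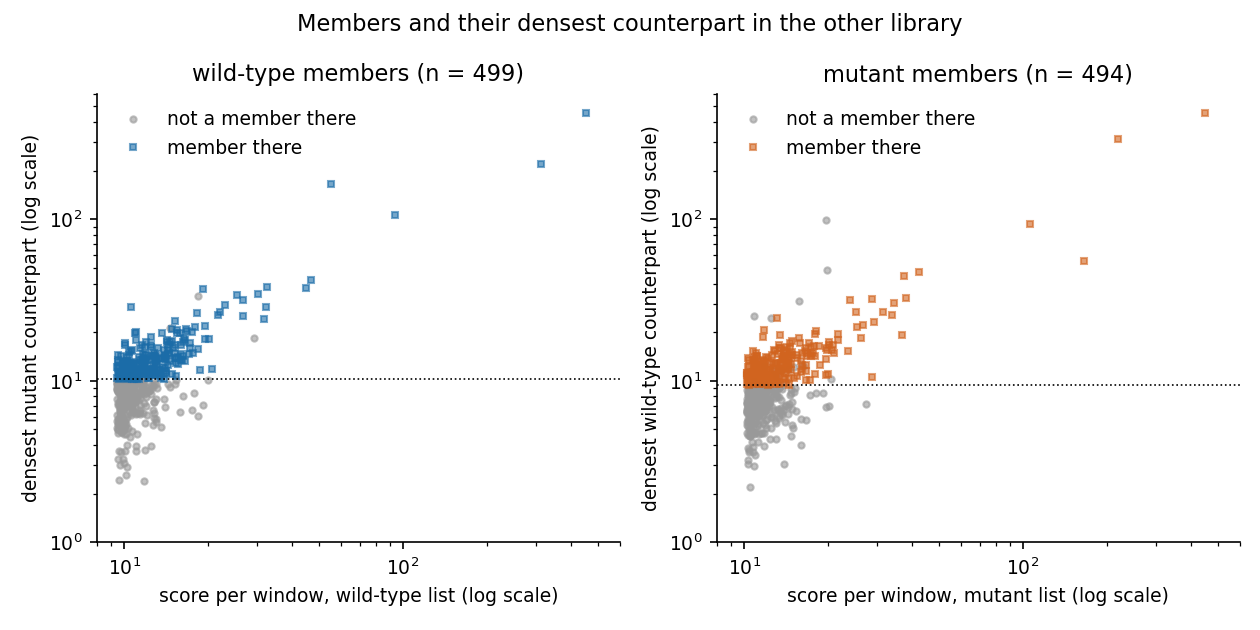
Score per window of each member (x axis, log scale) and of the densest island it overlaps in the other library (y axis, log scale), for 499 wild-type members (left) and 494 mutant members (right). Squares in colour overlap a member of the other list, grey points do not, and the dotted line is the lowest score of the other list's members, 10.2 on the left and 9.40 on the right.

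The length limits separated a smaller number. Among wild-type members with no mutant member beneath, 248 met as their densest counterpart an island of 2 to 20 kb below the mutant limit, and 55 of these islands were within 10% of it. A further 28 met islands of 20 kb or longer, 5 of which passed the limit, and 8 met islands shorter than 2 kb, 3 of which passed it. In the mutant the counts were 233 (41 within 10%), 33 (10 passed) and 11 (6 passed). An example chosen after its values were seen is the mutant member on chromosome 10 from 21862001 to 21866800, with 19.6 per window, whose wild-type counterpart was 1.0 kb long and scored 99.4. Another is the wild-type member on chromosome 8 from 20009801 to 20029600, with 18.4 per window, which lay over a mutant island of 39.2 kb that scored 33.5.

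Few members had no island beneath them in the other library. The wild-type member without one lay on chromosome 5 from 105229401 to 105238600, was 9.2 kb long and scored 13.2 per window, which ranked it 107. The mutant had 6, of which the 5 densest lay on chromosome 16 (98283601 to 98286000, 12.4), chromosome 11 (88828001 to 88832000, 11.4), chromosome 12 (20255001 to 20259200, 11.0), chromosome 8 (75112601 to 75115200, 10.7) and chromosome 7 (69050001 to 69052600, 10.6). These 5 were 2.4 to 4.2 kb long and ranked 209 to 420. The wild-type member thus stood higher and was longer than each of them.

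Those with no island included, 12 wild-type and 11 mutant members stood below the median of the other library. For all islands of 2 to 20 kb the median percentile was itself near that point, at 54.2 and 51.2. In the wild type the lowest were on chromosome 13 (12940201 to 12944400, 11.8 per window, percentile 13.6 in the mutant; 13072801 to 13075000, 9.59, percentile 14.6; 13008801 to 13013600, 10.2, percentile 28.8), chromosome 12 (101205801 to 101216200, 10.2, percentile 19.1) and chromosome 10 (27058601 to 27061000, 9.66, percentile 32.05). In the mutant they were on chromosome 2 (48760401 to 48764000, 10.5, percentile 10.3 in the wild type; 179944801 to 179948800, 13.9, percentile 38.3; 6692201 to 6694600, 10.3, percentile 39.1; 129432401 to 129438000, 10.3, percentile 44.9) and chromosome 1 (133244001 to 133246800, 10.8, percentile 35.8). The 3 wild-type islands on chromosome 13 belong to 1 run of members.

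Members lay near each other in both libraries. Another member was within 100 kb of 197 of 500 wild-type members (39.4%, 35.1% to 43.8%) and of 169 of 500 mutant members (33.8%, 29.7% to 38.1%). The share of all islands of 2 to 20 kb with a member within 100 kb was not counted, so these shares alone do not show clustering. Joined at that distance, the wild-type members formed 376 runs, of which 303 were single islands, 56 were pairs and 17 held 3 or more. The mutant members formed 398 runs, with 331 single islands, 53 pairs and 14 of 3 or more. Some neighbours were pieces of nearly continuous signal, since 25 wild-type and 22 mutant gaps between members were shorter than 2 kb. The median gap between consecutive members of a chromosome was 1.22 Mb in wild-type and 1.66 Mb in mutant cells.

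Islands of 2 to 20 kb are themselves unevenly placed, so they were grouped by the distance to the nearest member other than the island itself, each island counted once. Within 10 kb of such a member, 76 of 848 wild-type islands (8.96%, 7.13% to 11.1%) and 74 of 901 mutant islands (8.21%, 6.50% to 10.2%) were members too, against 1.26% and 1.23% of all islands of that length. From 10 to 50 kb the wild-type share was 4.68% (78 of 1668) and the mutant share 3.505% (64 of 1826). From 50 to 250 kb the shares were 1.74% (87 of 5007, 1.39% to 2.14%) and 1.42% (77 of 5436, 1.12% to 1.77%), and the mutant interval takes in the share among all islands. Beyond 250 kb, up to 5 Mb, the shares lay below it, from 0.742% to 1.05%. The highest of them, in the wild type at 250 to 1000 kb, had an interval of 0.852% to 1.27%, which takes in the share among all islands. Since each island is counted once, a higher share near members leaves a lower one farther out. The low shares are thus no separate observation. The 2 runs with the most members in each list bore mainly on the first distance group, where the shares without them were 6.44% and 5.88%. From 10 to 50 kb they were 4.41% and 3.41% without these runs.

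**Figure D4:**
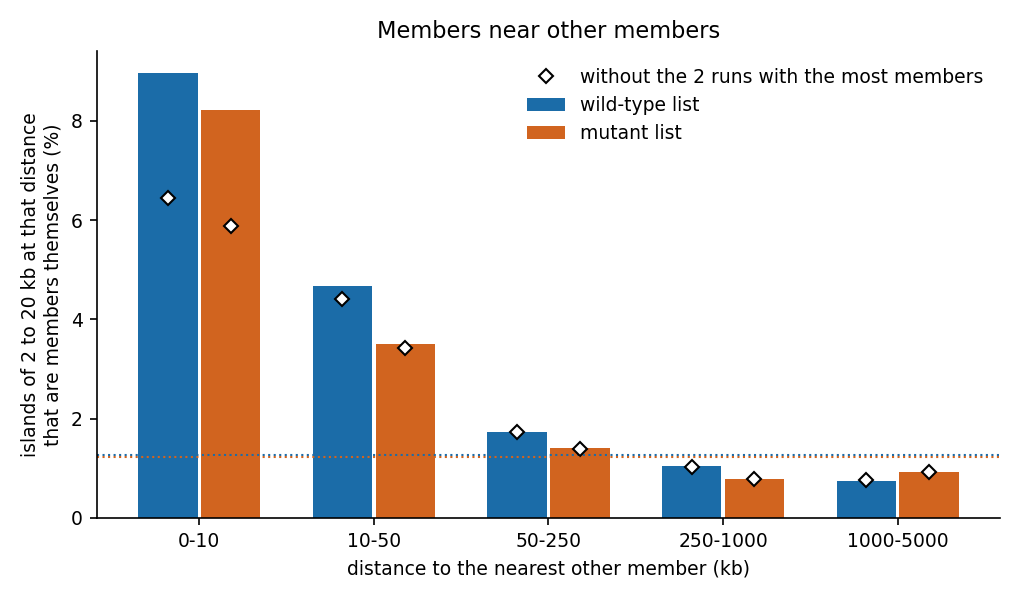
Percentage of islands of 2 to 20 kb that are members themselves (y axis) by distance to the nearest other member (x axis, kb), each island counted once, with bars for all members and diamonds without the 2 runs that hold the most members. Dotted lines at 1.26% and 1.23% show the share among all islands of that length, and the bars fall from 8.96% and 8.21% within 10 kb to 1.74% and 1.42% at 50 to 250 kb.

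The run with the most members was the same in both libraries. It lay on chromosome 5, from 14931401 to 15222200 in the wild type with 18 members and from 14907801 to 15222200 in the mutant with 19. The members there scored 10.4 to 30.1 per window in wild-type (median 14.4) and 10.8 to 36.9 in mutant cells (median 17.4). All 18 wild-type members overlapped a mutant member, as did 18 of the 19 mutant members with a wild-type member. The remaining mutant member, 14907801 to 14922200, lay within a wild-type island of 21.8 kb that scored 9.63 per window. Over the wild-type span 68.6% of bases were covered in wild-type and 66.0% in mutant cells. Whether input DNA has an excess of reads over this stretch was not tested.

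The run with the second most members occurred in the wild type alone. It spanned chromosome 13 from 12875601 to 13075000 (199.4 kb) and held 11 wild-type members and 0 mutant members. Wild-type scores per window in the 11 members ran from 9.59 to 19.98 with a median of 11.8, and the densest were 13014401 to 13028600 (19.98), 12921401 to 12925600 (18.3), 13029601 to 13033400 (17.5) and 12904601 to 12919600 (15.9). In the mutant the densest islands beneath these 4 stood at percentiles 98.7, 87.9, 91.6 and 90.6 of the mutant islands, and those beneath all 11 ran from percentile 13.6 to 98.7 with a median of 50. For 5 of the 11 the mutant percentile was below 50. Each of the 11 thus met a mutant island, most of them well below the mutant limit. Islands covered 66.5% of the run in wild-type and 37.8% in mutant cells, and the length-weighted score per window of all islands in it stood at percentile 99.4 of the wild-type and 74.6 of the mutant islands. The densest mutant island in the run scored 10.1 per window, just under the mutant limit of 10.2.

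**Figure D5:**
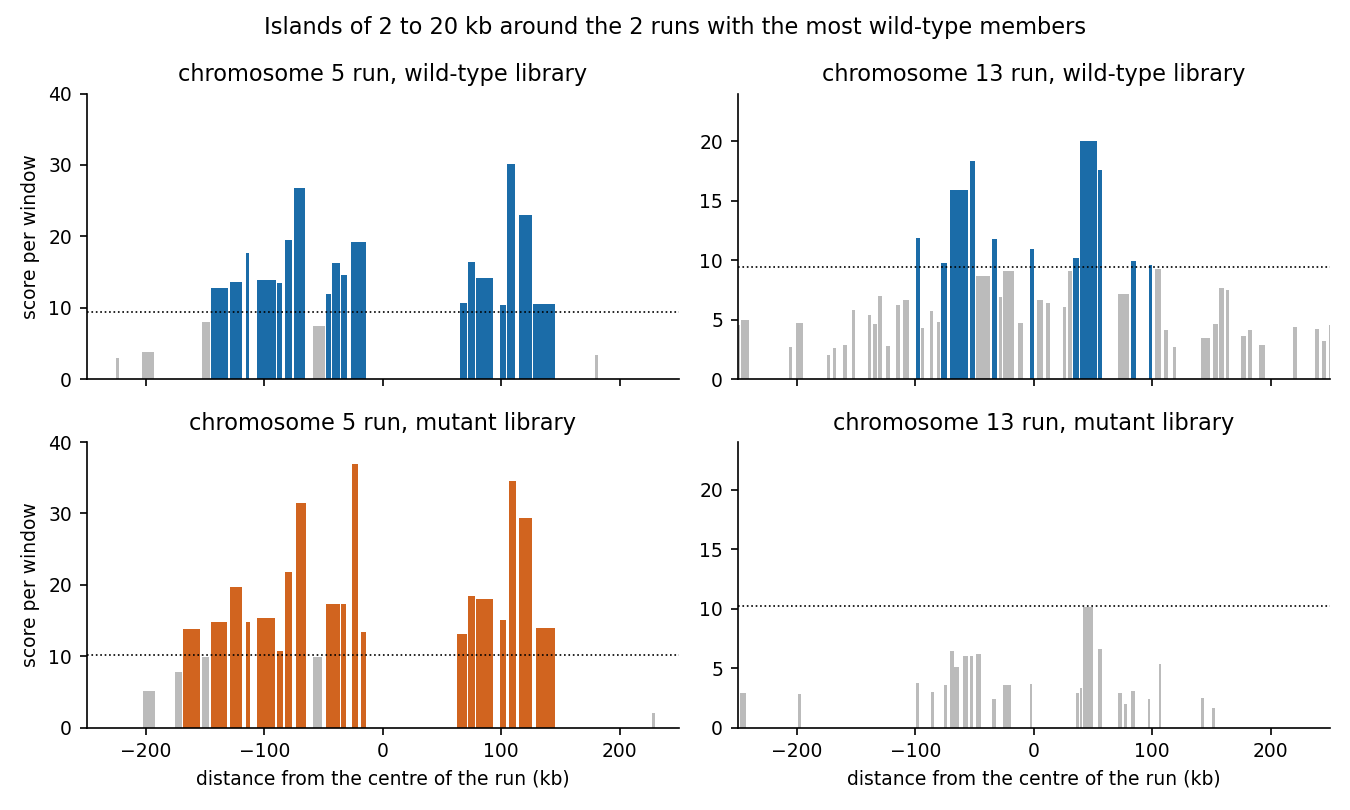
Islands of 2 to 20 kb within 250 kb of the centre of the chromosome 5 run (left) and the chromosome 13 run (right), as score per window (y axis) against distance from the centre (x axis, kb), with wild type above and mutant below. Members are coloured, other islands are grey, and the dotted line is the limit of the list; the chromosome 5 run has 18 and 19 members in the 2 libraries and the chromosome 13 run 11 and 0.

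The other leading runs held fewer members than these 2, and the place of each held at least 1 member of the other list. A run on chromosome 7 held 6 members in each list, from 30555001 to 30703600 in wild-type and to 30723600 in mutant cells, and 5 of the 6 overlapped in each direction. On chromosome 8 a wild-type run of 6 members spanned 19775401 to 20029600 and a mutant run of 4 spanned 19704001 to 19803000. In that wild-type span 2 wild-type and 2 mutant islands of 20 kb or longer also passed the limit, so the members are the shorter pieces of a stretch that is dense in both libraries. A wild-type run on chromosome 10 from 81461201 to 81691600 held 4 wild-type and 2 mutant members, and was 1 of 5 wild-type runs with 4 members, of which it had the highest summed score. The mutant list had further runs on chromosome 3 (144221201 to 144327200, 4 mutant members and 1 wild-type member) and chromosome 7 (24876801 to 25089000, 3 and 2), the second of which led the mutant runs of 3 members by summed score.

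Among runs of 3 or more members, 13 of 17 wild-type runs held at least 1 mutant member and 12 of 14 mutant runs at least 1 wild-type member. Of all members, 43.0% and 43.4% overlapped a member of the other list, and a run has several chances to hold one. The counts are therefore not read as agreement of runs beyond that of their members. The chromosome 13 run was 1 of the 4 wild-type runs that held none. The other three were chosen for mention after their values were seen, and in each of them the median mutant percentile beneath the members was higher, at 96.8 on chromosome 9 (113901201 to 114009600), 97.0 on chromosome 7 (119379601 to 119518200) and 83.3 on chromosome 19 (57160001 to 57249200). In the 2 mutant runs with no wild-type member, on chromosome 19 (17035401 to 17125600) and chromosome 17 (64964001 to 65022400), the median wild-type percentiles were 95.4 and 97.8. No other run of 3 or more in either list had a median as low as the 50 of the chromosome 13 run. Mutant members with a neighbour within 100 kb overlapped a wild-type member in 91 of 169 cases (53.8%) and those without one in 126 of 331 (38.1%), and the wild-type shares were 89 of 197 (45.2%) and 126 of 303 (41.6%). The chromosome 5 run alone gave 18 of the 91 and 18 of the 89, and the chromosome 13 run 0 of the 89. These differences thus rest in part on single runs.

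The members' share of the islands of 2 to 20 kb differed between chromosomes. Chromosome 17 had the highest share in the wild type, with 42 members, 1.98% of its islands of that length (95% interval 1.43% to 2.66%), and chromosome 5 in the mutant, with 68 members and 2.10% (1.63% to 2.65%). Chromosome 5 had 60 members and 1.88% in the wild type, and chromosome 17 had 41 members and 1.81% in the mutant. The lowest shares were 0.703% on chromosome 1 in wild-type (24 members) and 0.651% on chromosome 11 in mutant cells (20 members). Without the chromosome 5 run the share there was 1.32% in wild-type and 1.52% in mutant cells, and without the chromosome 13 run the wild-type share on that chromosome went from 1.80% to 1.40%. The high place of chromosome 5 thus rested partly on 1 stretch of 290.8 kb in the wild-type list and 314.4 kb in the mutant list. Across the 15 chromosomes the shares of the 2 libraries had a Pearson correlation of 0.73 and a Spearman correlation of 0.70, as a description.

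Members were found at the starts of the chromosomes more often than other islands, a count made after the positions of the highest members were seen. Mouse chromosomes have their centromere at the start, and the assembly opens with a gap that stands for it. Starts below 3.5 Mb were found for 9 wild-type members (1.80%, against 0.503% of islands of 2 to 20 kb) and 10 mutant members (2.00%, against 0.494%), and 7 in each list overlapped a member of the other. These counts are small and not all separate places. In the mutant, 3 of the 10 formed a run on chromosome 10 (3189401 to 3232000). Those on chromosome 18 from 3004201 to 3006400 and from 3007601 to 3011200 were neighbours. Separate places were not counted. Over the first 10 Mb the shares were 5.80% against 5.43% in wild-type and 6.60% against 5.52% in mutant cells, so the difference lay in the first stretch. These islands include the chromosome 18 and chromosome 17 islands that rank among the first 10 of both lists.

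Median cover around the members was higher than around all islands of 2 to 20 kb. Within 50 kb on each side, the island itself left out but other members counted, islands covered a median of 38.9% around wild-type members and 29.6% around all wild-type islands of 2 to 20 kb. In the mutant library, which did not choose these members, the same places were covered to 37.6% and 30.2%. Around mutant members the median was 38.2% against 32.4% in the mutant library, and 38.2% against 31.8% in the wild-type library. Cover over 60% was found around 19.8% of wild-type members and 6.77% of all wild-type islands of 2 to 20 kb, and around 18.2% and 8.20% in the mutant. Other members add to this cover where they lie close by. Around members with no other member within 100 kb, where none can add to it, wild-type cover had a median of 32.8% and mutant cover one of 33.8%, against the 29.6% and 32.4% around all islands. Members with and without a counterpart member had medians of 37.6% and 39.6% in their own library (wild type), the mutant medians being 36.6% and 40%.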

How the data were processed

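The authors deposited 1 list of islands per H3K36me3 library, with chromosome, start, end and an island score. Bowtie 1.0.0, SICER 1.1 and build mm9 are named in the submitters' processing notes. Windows of 200 bp and gaps of 600 bp are read from the names the authors gave the lists. Use of the input libraries and removal of duplicate reads are not given in the sources used here.

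Score per window was computed from the deposited score and length. Depth was solved from islands 1 window long (8 wild-type and 14 mutant), whose scores take only values that whole read counts allow. Overlap meant at least 1 bp. Runs joined members at most 100 kb apart. Positions are counted from 1. Scipy 1.17.1, pandas 2.3.3, numpy 2.4.6 and, for figures, matplotlib 3.10.9 ran under Python 3.11.15. The functions for depth, runs and neighbours were tested on simulated data, and the one for overlap on a random subset of the densest wild-type islands. Gene lists and cell type markers had been planned for an mm9 annotation and were not used.

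The members, groupings and named regions were chosen with earlier results of these data known. Named were members over 50 per window, the next 10, 3 on each side of the limit, the 5 highest with no counterpart, the 5 with the lowest percentile in the other list, and the 5 runs with the most members, ties broken by summed score. Alternatives covered set size, ranking, length range, chromosomes, overlap and distance.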

Additional observations from a re-analysis of the deposited data

How the results depend on the processing

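Of 178 values under alternatives, 143 stayed within the 95% interval (for counts, within 1.5 times) of the value reported and 35 did not. Agreement was 51.2% and 51.0% (wild type and mutant here and below) when ranked by island score and 35.8% and 35.8% for islands of 2 kb to under 10 kb. It lay between 41.0% and 47.4% otherwise. Mutant members with any wild-type island were 99.6% among the 250 highest and 99.6% when ranked by island score. Members with a neighbour within 100 kb were 30.8% and 25.2% (250 highest), 44.5% and 42.9% (1000 highest), 34.4% and 28.6% (island score), and within 50 kb 30.8% and 27.6%, within 500 kb 56.6% and 49.4%. Of islands within 1 Mb of a member, 1.99% and 1.55% were members, and 1.18% and 0.951% (250 highest), 3.06% and 2.82% (1000 highest) and 1.70% (island score, wild type), 3.20% and 2.63% within 250 kb and 1.40% and 1.27% within 5 Mb. Each was above the share among all islands of its own setting, by 1.03 to 2.53 times. Median length was 15600 and 15200 bp by island score, and 5400 bp in the mutant with all 19 autosomes. Islands over 25 per window numbered 14 and 19, those over 100 numbered 2 in the wild type, and those over 50 at all lengths 20 and 17. The 250 highest put 5.60% of mutant members on chromosome 1 and 3.20% of wild-type members on chromosome 9. Leaving out the runs with the most members, using the widest counterpart and solving depth on the 15 chromosomes alone were added after seeing the data. No paired analysis was possible because each genotype has 1 H3K36me3 library, so none could be left out either. Only enriched islands are listed, so density below the threshold of the caller cannot be given for either library.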
